A study of Saccharomyces cerevisiae with 18 samples.

Results

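The genes described here encode the yeast proteasome and the factors closest to it. They were taken by gene name from the known make-up of the complex: 14 subunits of the core particle (7 of the alpha ring and 7 of the beta ring), 18 subunits of the regulatory particle (10 of the base and 8 of the lid), the transcription factor gene RPN4, the assembly and associated factor genes UMP1, ECM29 and BLM10, and the polyubiquitin gene UBI4. All 37 had a probe on the array and passed the filter on missing values, out of 5365 named genes of which 5096 were tested. The cells were Saccharomyces cerevisiae of strain S288C, the laboratory reference strain, grown exponentially at 25 °C in YPD, a rich glucose medium. At an optical density of 1 the cultures received 1.5 mM p-nitrophenol, 5 mM m-nitrophenol or 3 mM o-nitrophenol, and RNA was taken after 2 h. The isomers carry the nitro group opposite the hydroxyl group of the phenol ring (p), next to it (o) or between these positions (m). For each isomer 3 independent biological samples were each hybridised to 1 array, with polyA RNA of treated cells in Cy5 and polyA RNA of the same strain before treatment in Cy3. The 9 arrays were each scanned at high and low laser power.

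The proteasome is the ATP-driven protease that degrades ubiquitin-tagged proteins in the cytosol and nucleus. Its core particle is a barrel of stacked alpha and beta rings with the active sites inside, and its regulatory particle, a base with an ATPase ring and a lid, binds, unfolds and deubiquitinates the substrate. In budding yeast the subunit genes are activated together by Rpn4, a short-lived protein that the proteasome itself degrades, so that a drop in proteasome capacity is known to raise subunit transcription. RPN4 is in turn a known target of the stress and drug resistance regulators Yap1, Pdr1, Pdr3 and Hsf1.

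Values are log2 ratios of the 2 dyes, the mean of both scans of an array, and 1 unit is a 2-fold change. Values above 0 are taken to mean more RNA after exposure: the dye assignment makes this likely, but the values themselves carry no statement of direction. A gene was called higher or lower when its mean differed from 0 at a limma adjusted p under 0.05 (Benjamini-Hochberg over the 5096 genes, two-sided). Each error is the standard error of that fit. The 9 arrays held 328 of the 333 possible values of the 37 genes, and the number of arrays limits the precision, with a median 95% half-width of 0.83 to 0.89 per mean. The arrays numbered 1 stood apart: over all genes they correlated with the other arrays of their isomer at r of 0.51 to 0.61, against 0.84 to 0.88 between arrays 2 and 3 (genes are not independent replicates). Results are therefore also given without the 3 arrays numbered 1. Every ratio also contains growth during the exposure and any dye effect, because neither a mock-treated culture nor a dye swap was among these arrays. The labels do not say whether arrays shared RNA from before treatment.

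The proteasome genes lay above 0 as a group after each isomer. The median of the 37 means was 0.68 for p-nitrophenol, 0.74 for the m isomer and 0.99 for the o isomer, against 0.10, 0.04 and -0.17 for all 5096 genes. In p-nitrophenol 13 of 37 were called higher and 0 lower, where 13.0% of all genes were called higher and 11.9% lower. In m-nitrophenol 7 of 37 were called higher and 0 lower, where 8.26% of all genes were called higher and 9.65% lower. In o-nitrophenol 14 of 37 were called higher and 0 lower, where 13.8% of all genes were called higher and 18.7% lower. No member reached an unadjusted p under 0.05 with a negative mean in any of the 3 treatments. Of all 5096 genes 919, 849 and 1325 did so in p-, m- and o-nitrophenol. The number called higher in 3 treatments was 6 (SCL1, PUP2, PRE1, RPN3, RPN6 and RPN12), where 3.47% of all genes were. Of these, RPN12 alone kept its calls in all 3 treatments under every alternative setting. PUP2, RPN3 and RPN6 lost their m-nitrophenol call without array 2 or 3 of that isomer, and SCL1 without any 1 of the m-nitrophenol arrays. PUP2, PRE1 and RPN6 lost their p-nitrophenol call without array 2 of that isomer, and RPN3 without any 1 of the p-nitrophenol arrays. A further 8 members were called in 1 treatment, 4 in 2 and 19 in none, where 666, 293 and 3960 of all 5096 genes were. A positive mean in all 3 treatments was found for 32 of the 37, and the share of all genes is not given for this count.

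Without the arrays numbered 1, 18 of 37 were called higher in p-nitrophenol (22.5% of all genes), 25 in m-nitrophenol (21.8%) and 32 in o-nitrophenol (22.2%). The members called higher in all 3 treatments were then 15, against 8.32% of all genes, and every one of the 13, 7 and 14 earlier calls was kept. Those arrays were left out for their low correlation with the others, so keeping the calls is no independent check of them. Single arrays moved the counts by over 1.5 times: without array 1, 2 or 3 of p-nitrophenol 8, 3 and 5 members were called in p-nitrophenol, without array 2 or 3 of m-nitrophenol 2 each in m-nitrophenol, and without array 1, 2 or 3 of o-nitrophenol 27, 7 and 7 in o-nitrophenol. Without o-nitrophenol array 1, 15 members were called in m-nitrophenol. Shares of all genes are not given for the fits with 1 array left out. Their counts therefore show only how far the calls depend on single arrays. With the replicate number as a block the counts were 16, 11 and 19 (16.9%, 11.7% and 16.9% of all genes), and between isomers 0 members were called, where 3.71% of all genes were called between o and p and 3.53% between o and m.

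**Figure D1:**
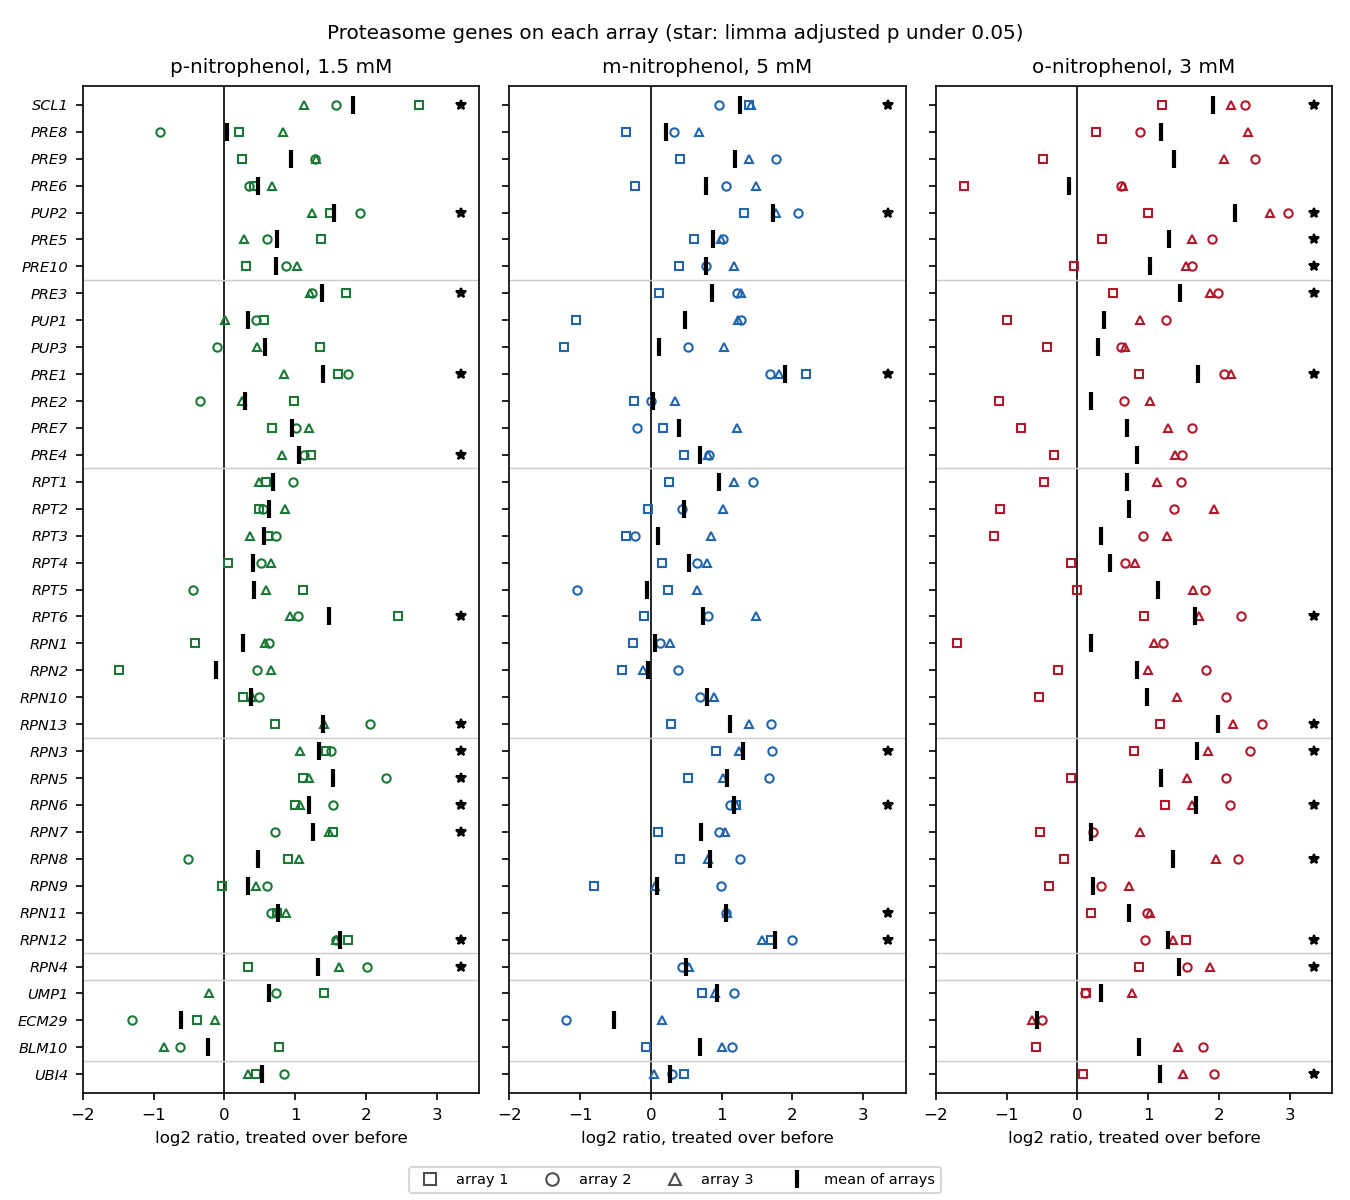
Log2 ratio (treated over before treatment, x axis) of each of the 37 genes (rows, grouped as alpha ring, beta ring, base, lid, RPN4, assembly and associated factors, and UBI4) on arrays 1, 2 and 3 of each isomer (open symbols), with the mean (black bar) and a star where the limma adjusted p was under 0.05. Most symbols lie right of 0, with 13, 7 and 14 stars, and the squares of o-nitrophenol array 1 lie left of arrays 2 and 3 of that isomer for most genes.

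The arrays show how far the group moved as a whole. The median of the 37 genes was 0.75, 0.72 and 0.83 on p-nitrophenol arrays 1, 2 and 3, with 33, 30 and 34 of 37 above 0. It was 0.24, 0.97 and 1.03 on the m-nitrophenol arrays, with 21 of 33 measured members, 33 of 37 and 36 of 37 above 0. It was -0.08, 1.62 and 1.43 on the o-nitrophenol arrays, with 16 of 36, 36 of 37 and 36 of 37 above 0. The proteasome genes thus stood highest on o-nitrophenol arrays 2 and 3, while on array 1 of the same isomer their median was close to 0. Ranked within each array, the members' median lay at percentile 70.0, 74.1 and 81.8 of all genes in p-nitrophenol, at 63.6, 81.7 and 85.8 in m-nitrophenol, and at 54.1, 91.1 and 90.5 in o-nitrophenol. On o-nitrophenol array 1 the scans also differed most: for the 18 members with both scans the median was 0.59 at high power and -0.20 at low power, whereas on arrays 2 and 3 all 37 had both scans and the medians were 1.61 and 1.61, and 1.49 and 1.46. The part of signal strength in the low values of that array was not tested, as spot intensities are not analysed here.

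Genes of both the core and the regulatory particle were called higher. In p-nitrophenol 5 of 14 core and 7 of 18 regulatory genes were called higher, with m-nitrophenol 3 and 4, and with o-nitrophenol 6 and 6, with 0 lower in each case. These were 35.7%, 21.4% and 42.9% of the core genes and 38.9%, 22.2% and 33.3% of the regulatory genes. Of all genes 13.0%, 8.26% and 13.8% were called higher. The median of the core means was 0.85, 0.78 and 1.11 in p-, m- and o-nitrophenol, and that of the regulatory means 0.66, 0.77 and 0.92. Within arrays, the core median minus the regulatory median was 0.37, 0.25 and -0.03 in p-nitrophenol, 0.08, 0.02 and 0.20 with m-nitrophenol, and -0.05, -0.01 and 0.20 in o-nitrophenol. It was above 0 on 6 of 9 arrays and at most 0.37 in size. Without the arrays numbered 1, 8 of 14 core and 9 of 18 regulatory genes were called higher in p-nitrophenol, 11 and 12 with m-nitrophenol and 13 and 16 in o-nitrophenol. The shares of all genes called higher also rose in that fit, to 22.5%, 21.8% and 22.2%. No test of the difference between the particles was made, since the genes of a particle are not replicates.

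**Figure D2:**
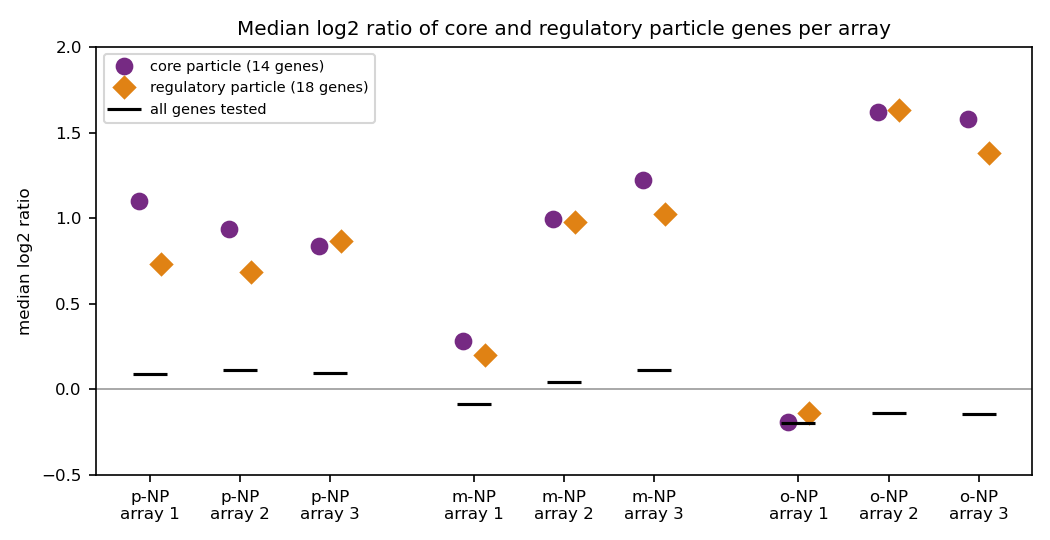
Median log2 ratio (y axis) of the core particle genes (circles), the regulatory particle genes (diamonds, 16 of the 18 measured on m-nitrophenol array 1) and all genes tested (bars) on each of the 9 arrays (x axis, NP for nitrophenol). Both particles lie above all genes on 8 arrays and close to them on o-nitrophenol array 1, and their medians differ by 0.37 at most.

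Lid and base genes of the regulatory particle were counted apart. In p-nitrophenol 5 of 8 lid genes were called higher (RPN3, RPN5, RPN6, RPN7 and RPN12) and 2 of 10 base genes (RPT6 and RPN13). In m-nitrophenol 4 of 8 lid genes (RPN3, RPN6, RPN11 and RPN12) and 0 of 10 base genes were called. At an unadjusted p under 0.05, 2 of 10 base genes were higher there, against 858 of all 5096 genes. In o-nitrophenol 4 of 8 lid genes (RPN3, RPN6, RPN8 and RPN12) and 2 of 10 base genes (RPT6 and RPN13) were called. Called higher over all genes were 13.0%, 8.26% and 13.8% in p-, m- and o-nitrophenol. The base shares of 20%, 0% and 20%, from 10 genes, were near or below these, while the lid shares were 62.5%, 50% and 50%. Without the arrays numbered 1, 6, 7 and 6 of 8 lid genes and 3, 5 and 10 of 10 base genes were called higher in p-, m- and o-nitrophenol, where 22.5%, 21.8% and 22.2% of all genes were, so that the order of lid and base turned in o-nitrophenol. The difference between lid and base was not tested. With all arrays, the lid median exceeded the base median on 8 of 9 arrays, by 0.12 to 0.64, and was lower by 0.09 on o-nitrophenol array 2. The 6 ATPase genes of the base, RPT1 to RPT6, which unfold the substrate, had means of 0.41 to 1.48 in p-nitrophenol, -0.05 to 0.96 in m-nitrophenol and 0.34 to 1.66 in o-nitrophenol, and RPT6 alone was called. Of the core, alpha ring genes had medians of 0.75, 0.87 and 1.29 in p-, m- and o-nitrophenol and beta ring genes 0.96, 0.48 and 0.70. The alpha ring was higher on all m- and o-nitrophenol arrays, by 0.18 to 0.79, whereas in p-nitrophenol it was lower by 0.80 and 0.15 on arrays 1 and 2 and higher by 0.21 on array 3.

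Among alpha ring genes, SCL1 and PUP2 were called in all 3 treatments. SCL1 had log2 ratios of 2.75, 1.58 and 1.12 on p-nitrophenol arrays 1, 2 and 3, of 1.39, 0.97 and 1.42 on the m-nitrophenol arrays and of 1.20, 2.37 and 2.17 on the o-nitrophenol arrays. All 9 values were positive and the isomers overlapped. SCL1 rose by 1.82 ± 0.35 (3.52-fold, adjusted p = 0.00594), 1.26 ± 0.35 (2.39-fold, 0.0314) and 1.91 ± 0.35 (3.76-fold, 0.00298). PUP2 had 1.49, 1.92 and 1.24 in p-nitrophenol, 1.32, 2.08 and 1.76 with m-nitrophenol and 1.00, 2.98 and 2.72 in o-nitrophenol. Its o-nitrophenol values held both the lowest and the highest of the 9. PUP2 rose by 1.55 ± 0.37, 1.72 ± 0.37 and 2.23 ± 0.37, the last being 4.69-fold and the largest mean of any member (adjusted p = 0.0145, 0.0114 and 0.00215).

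PRE5, another alpha ring gene, had 1.37, 0.60 and 0.28 in p-nitrophenol, 0.61, 1.02 and 0.99 with m-nitrophenol and 0.35, 1.90 and 1.62 in o-nitrophenol. It was positive on all arrays and passed the test only for o-nitrophenol, where it rose by 1.29 ± 0.33 (adjusted p = 0.0154). This call was lost with low-power scans alone and without o-nitrophenol array 2 or 3. PRE10 was called in o-nitrophenol as well (1.03 ± 0.35, adjusted p = 0.0439). Its call held under 10 of 19 alternative settings and was lost without o-nitrophenol array 2 or 3. The remaining alpha ring genes were not called: PRE8 had means of 0.04, 0.22 and 1.19, PRE9 of 0.94, 1.19 and 1.37, and PRE6 of 0.48, 0.78 and -0.11 in p-, m- and o-nitrophenol. On arrays 2 and 3 alone, PRE9 was called in all 3 treatments (1.29, 1.58 and 2.29, each ± 0.23, adjusted p = 0.00336, 0.00119 and 0.00014), PRE8 in o-nitrophenol (1.65 ± 0.45, 0.0156) and PRE6 in m- and o-nitrophenol (1.28 and 0.63, each ± 0.23, 0.00319 and 0.0497). PRE5 and PRE10 were then called in m-nitrophenol as well (1.01 and 0.97, adjusted p = 0.00823 and 0.00944), and PRE10 also in p-nitrophenol (0.95, 0.0114).

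In the beta ring, PRE1, whose subunit has no active site, was called in all 3 treatments. Its log2 ratios were 1.61, 1.74 and 0.85 in p-nitrophenol, 2.19, 1.68 and 1.81 with m-nitrophenol and 0.88, 2.08 and 2.17 in o-nitrophenol. All 9 were positive, and o-nitrophenol array 1 was again the lowest of its isomer. PRE1 rose by 1.40 ± 0.31, 1.89 ± 0.31 and 1.71 ± 0.31 (adjusted p = 0.011, 0.0037 and 0.00316).

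The active sites of the core lie in the products of PRE3 (caspase-like), PUP1 (trypsin-like) and PRE2 (chymotrypsin-like). PRE3 had 1.72, 1.23 and 1.21 in p-nitrophenol, 0.12, 1.22 and 1.27 with m-nitrophenol and 0.50, 1.99 and 1.87 in o-nitrophenol. It rose by 1.39 ± 0.35 in p-nitrophenol and 1.45 ± 0.35 in o-nitrophenol (adjusted p = 0.0178 and 0.011), and its m-nitrophenol mean of 0.87 ± 0.35 was not called (0.109). The PRE3 calls were lost without any 1 of the p-nitrophenol arrays and without o-nitrophenol array 2 or 3, respectively. Neither of the other active site genes was called. PUP1 had means of 0.34, 0.48 and 0.38 and PRE2 of 0.29, 0.04 and 0.19, each with standard errors of 0.40 to 0.51. PRE4 rose by 1.05 ± 0.34 in p-nitrophenol (adjusted p = 0.0466), while PRE7 (0.96, 0.40 and 0.70) and PUP3 (0.57, 0.11 and 0.29) were not called in any treatment. The PRE4 call held under 9 of 19 alternative settings. It was lost with median centring and without any 1 of the p-nitrophenol arrays. On arrays 2 and 3 alone, PUP1 was called in m- and o-nitrophenol (1.25 and 1.07, each ± 0.23, adjusted p = 0.00365 and 0.00572), PRE2 in o-nitrophenol (0.84 ± 0.25, 0.0219) and PRE3 in m-nitrophenol too (1.24 ± 0.21, 0.00246). PRE4 was then called in all 3 treatments, PRE7 in p- and o-nitrophenol and PUP3 in m-nitrophenol.

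RPN12, a lid subunit that joins late in lid assembly, was called in all 3 treatments. Its log2 ratios were 1.74, 1.58 and 1.58 in p-nitrophenol, 1.69, 1.99 and 1.57 with m-nitrophenol and 1.53, 0.95 and 1.36 in o-nitrophenol. All 9 were positive, and the arrays numbered 1 were not the lowest in p-, m- or o-nitrophenol. RPN12 rose by 1.63 ± 0.23 (3.10-fold), 1.75 ± 0.23 (3.37-fold) and 1.28 ± 0.23 (2.43-fold), with adjusted p = 0.00187, 0.00156 and 0.00302.

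RPN6, a lid scaffold that also touches the core, had 0.99, 1.54 and 1.07 in p-nitrophenol, 1.21, 1.12 and 1.20 with m-nitrophenol and 1.24, 2.16 and 1.62 in o-nitrophenol. Its m-nitrophenol values lay close together. RPN6 rose by 1.20 ± 0.25, 1.18 ± 0.25 and 1.67 ± 0.25 (adjusted p = 0.00878, 0.0116 and 0.00136). RPN3, another structural lid subunit, had 1.43, 1.51 and 1.07, then 0.93, 1.71 and 1.25, then 0.80, 2.45 and 1.84 on arrays 1, 2 and 3 of p-, m- and o-nitrophenol. It was positive on all arrays and rose by 1.34 ± 0.32, 1.30 ± 0.32 and 1.69 ± 0.32 (adjusted p = 0.0148, 0.0211 and 0.00363).

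RPN7, a structural lid subunit, had its highest mean in p-nitrophenol and its lowest in o-nitrophenol. Its log2 ratios were 1.54, 0.72 and 1.48 in p-nitrophenol, 0.10, 0.97 and 1.05 with m-nitrophenol and -0.53, 0.23 and 0.89 in o-nitrophenol. It rose by 1.25 ± 0.33 in p-nitrophenol (adjusted p = 0.0216), and the m- and o-nitrophenol means of 0.71 ± 0.33 and 0.19 ± 0.33 were not called (0.161 and 0.673). The RPN7 call was lost without p-nitrophenol array 1 or 3. The p- and o-nitrophenol arrays overlapped. RPN11, the deubiquitinase of the lid, had 0.75, 0.65 and 0.87 in p-nitrophenol, 1.06 and 1.07 on m-nitrophenol arrays 2 and 3, and 0.19, 0.98 and 1.02 in o-nitrophenol. It was called in m-nitrophenol alone (1.07 ± 0.31, adjusted p = 0.045), with means of 0.76 ± 0.26 and 0.73 ± 0.26 in p- and o-nitrophenol (0.0575 and 0.0541). With the replicate number as a block RPN11 was instead called in p- and o-nitrophenol (adjusted p = 0.0408 and 0.0379) and not in m-nitrophenol (0.0602). With arrays 2 and 3 alone it was called in all 3 treatments (0.76, 1.07 and 1.00, each ± 0.22, adjusted p = 0.0222, 0.00528 and 0.00535). RPN7 was then called in m-nitrophenol too (1.01 ± 0.27, 0.0188). Of the other lid genes, RPN5 rose by 1.53 ± 0.42 in p-nitrophenol (adjusted p = 0.0249), RPN8 by 1.35 ± 0.47 in o-nitrophenol (0.0492), and RPN9 (0.34, 0.08 and 0.22) was not called. The RPN8 call held under 11 of 19 alternative settings and was lost without o-nitrophenol array 2 or 3. That of RPN5 was lost without p-nitrophenol array 2 or 3. With arrays 2 and 3 alone, RPN5 was called in all 3 treatments (1.74, 1.35 and 1.83, each ± 0.32, adjusted p = 0.0034, 0.0103 and 0.00186). RPN8 was then called in m-nitrophenol too (1.04 ± 0.36, 0.0463).

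The base holds the ubiquitin receptors RPN1, RPN10 and RPN13. RPN13 had 0.72, 2.05 and 1.41 in p-nitrophenol, 0.28, 1.69 and 1.39 with m-nitrophenol and 1.17, 2.62 and 2.19 in o-nitrophenol, with array 1 the lowest in each isomer. It rose by 1.40 ± 0.38 in p-nitrophenol and 1.99 ± 0.38 in o-nitrophenol (adjusted p = 0.0243 and 0.0038), and the m-nitrophenol mean of 1.12 ± 0.38 was not called (0.066, or 0.0063 with the replicate block, which called it). The p-nitrophenol call of RPN13 was lost without array 2 or 3 of that isomer. The other receptors were not called: RPN10 had means of 0.38, 0.80 and 0.99 and RPN1 of 0.27, 0.05 and 0.20. RPT6 rose by 1.48 ± 0.40 in p-nitrophenol and 1.66 ± 0.40 in o-nitrophenol (adjusted p = 0.0243 and 0.0116). These calls were lost without any 1 of the p-nitrophenol arrays and without o-nitrophenol array 2 or 3, respectively. RPN2, the scaffold of the base, had means of -0.12, -0.05 and 0.85 and was not called. When the arrays numbered 1 were left out, RPN13 was called in m-nitrophenol too (1.54 ± 0.26, adjusted p = 0.00207), as was RPN10 (0.80 ± 0.25, 0.0314). All 10 base genes were then called in o-nitrophenol, among them RPN1 at 1.15 ± 0.22 (adjusted p = 0.00274) and RPN2 at 1.41 ± 0.27 (0.00301).

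RPN4, the transcription factor gene, had log2 ratios of 0.33, 2.02 and 1.62 in p-nitrophenol, 0.44 and 0.54 on m-nitrophenol arrays 2 and 3, and 0.87, 1.54 and 1.88 in o-nitrophenol. The m-nitrophenol values lay below those of arrays 2 and 3 of both other isomers, while the value of p-nitrophenol array 1 was lower than both of them. RPN4 rose by 1.32 ± 0.35 (2.50-fold, adjusted p = 0.0245) in p-nitrophenol and by 1.43 ± 0.35 (2.70-fold, 0.0139) in o-nitrophenol. Its mean in m-nitrophenol was 0.49 ± 0.43 (0.458) and was not called, with a 95% half-width of 0.97 from 2 arrays. Of the 32 subunit genes 7 were called higher there, where 8.26% of all genes were. Their median of 0.78 lay within that interval of RPN4, and the difference was not tested. The RPN4 calls were lost without array 2 or 3 of the isomer concerned (adjusted p = 0.155 and 0.127 in p-nitrophenol, 0.0714 and 0.0967 in o-nitrophenol). When the arrays numbered 1 were left out, its means were 1.82, 0.49 and 1.71, each ± 0.23, and again the m-nitrophenol mean was not called (0.121).

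UMP1 encodes the chaperone that completes core assembly and is then degraded. It had 1.41, 0.72 and -0.22 in p-nitrophenol, 0.72, 1.17 and 0.91 with m-nitrophenol and 0.13, 0.10 and 0.77 in o-nitrophenol, and no mean passed the test (0.64, 0.93 and 0.33, each ± 0.32). With arrays 2 and 3 alone its means were 0.25, 1.04 and 0.44, each ± 0.29, and that in m-nitrophenol was called (adjusted p = 0.0224). ECM29, a factor that holds core and regulatory particle together, had -0.39, -1.31 and -0.14 in p-nitrophenol, -1.20 and 0.16 on m-nitrophenol arrays 2 and 3, and -0.50 and -0.63 on o-nitrophenol arrays 2 and 3. It was the member with negative means in all 3 treatments (-0.61, -0.52 and -0.57), none of them called (adjusted p = 0.233 to 0.437).

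BLM10 encodes an alternative activator that caps the core in place of the regulatory particle. Its log2 ratios were 0.78, -0.62 and -0.85 in p-nitrophenol, -0.07, 1.15 and 1.01 with m-nitrophenol and -0.59, 1.77 and 1.43 in o-nitrophenol. Array 1 opposed the other arrays in each isomer, and no mean was called (-0.23, 0.70 and 0.87, each ± 0.48). Without the arrays numbered 1, BLM10 fell by 0.74 ± 0.23 in p-nitrophenol (adjusted p = 0.0299) and rose by 1.08 ± 0.23 in m-nitrophenol (0.0061) and 1.60 ± 0.23 in o-nitrophenol (0.000669). It was the member called lower in that fit.

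UBI4, the stress-inducible gene for a chain of ubiquitin units, had 0.44, 0.84 and 0.33 in p-nitrophenol, 0.47, 0.31 and 0.05 with m-nitrophenol and 0.08, 1.93 and 1.49 in o-nitrophenol. The highest values were those of o-nitrophenol arrays 2 and 3, and array 1 of that isomer lay among the others. UBI4 rose by 1.17 ± 0.33 in o-nitrophenol (2.24-fold, adjusted p = 0.0243) and was not called in p-nitrophenol (0.54, 0.261) or m-nitrophenol (0.27, 0.603). The o-nitrophenol call was lost with low-power scans alone and without o-nitrophenol array 2 or 3. The 2 probe identifiers of UBI4 hold identical values and were counted as 1 measurement. The ubiquitin coding units of UBI4, RPS31 and the RPL40 genes are near-identical, so that a probe may read several of them and the UBI4 value is uncertain. RPS31, a ribosomal protein gene fused to ubiquitin, fell by 2.29 ± 0.60 in p-nitrophenol and fell by 3.82 ± 0.60 in m-nitrophenol (adjusted p = 0.0208 and 0.00298) and had a mean of -1.69 ± 0.60 in o-nitrophenol (0.0531). RPL40B had -2.05, -2.26 and -0.40 and was not called.

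**Figure D3:**
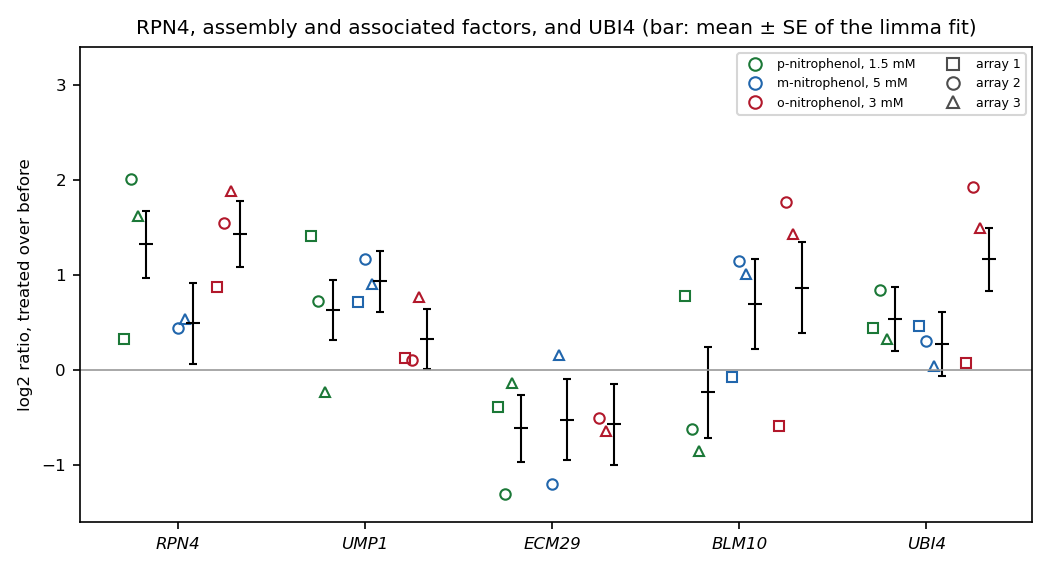
Log2 ratio (treated over before treatment, y axis) of RPN4, UMP1, ECM29, BLM10 and UBI4 (x axis) on each array (squares, circles and triangles for arrays 1, 2 and 3, coloured by isomer), with the mean ± standard error of the limma fit in black. RPN4 lies at 0.44 and 0.54 in m-nitrophenol, below arrays 2 and 3 of the other isomers, and BLM10 differs in sign between array 1 and arrays 2 and 3 in each isomer.

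The 21 members not given array by array spanned -1.70 (RPN1 on o-nitrophenol array 1) to 2.51 (PRE9 on o-nitrophenol array 2). Of the members with values on 3 arrays, 26 of 37 were above 0 on all 3 in p-nitrophenol (33.3% of all genes), 19 of 33 in m-nitrophenol (32.2%) and 16 of 36 in o-nitrophenol (25.3%).

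The isomers were then set against each other. Their doses differ, so isomer and dose cannot be told apart. No member was called between isomers, whereas 0.0196% of all genes differed between m and p, 1.18% between o and p and 0.726% between o and m. By an unadjusted p under 0.05 the numbers were 0, 1 and 0, against 7.14%, 19.3% and 17.6% of all genes. The member of lowest p was RPN7 in o minus p, at -1.05 ± 0.46 (adjusted p = 0.248). The median difference of the 37 genes was -0.02, 0.09 and 0.19 for m against p, o against p and o against m, beside -0.05, -0.20 and -0.13 for all genes. Means were higher in o- than in p-nitrophenol for 24 of 37 members (41.0% of all genes) and higher in o- than in m-nitrophenol for 27 (44.5%).

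These comparisons were imprecise, and the absence of calls does not show that the isomers act alike. The 95% interval of a member's difference had a median half-width of 1.19 to 1.25, and stayed within 1 of 0 on both sides for 3, 2 and 1 members. For RPN4 the intervals ran from -2.08 to 0.42 in m minus p, from -1.01 to 1.22 in o minus p and from -0.31 to 2.19 in o minus m. Arrays of a pair of isomers rarely stood clear of each other. In m minus p this held for 0 of 33 members (3.87% of all genes stood higher and 10.1% lower). In o minus p it held for RPN12, lower in o-nitrophenol, 1 of 36 (8.58% higher and 14.1% lower). In o minus m it held for RPN6, higher, and again RPN12, lower, of 33 (11.5% and 12.9%).

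Without the arrays numbered 1, 1 member was called between m and p, 5 between o and p and 4 between o and m, where 5.71%, 21.2% and 20.6% of all genes were called in either direction. All of these members stood higher in the isomer named first, as did 2.85%, 9.07% and 9.11% of all genes. BLM10 was higher in m- than in p-nitrophenol by 1.81 ± 0.32 (adjusted p = 0.0181) and in o- than in p-nitrophenol by 2.33 ± 0.32 (0.00344). The others higher in o- than in p-nitrophenol were PUP2 by 1.27 ± 0.36, PRE5 by 1.32 ± 0.32, RPN10 by 1.31 ± 0.35 and RPN8 by 1.85 ± 0.50, with adjusted p from 0.0224 to 0.0377. Higher in o- than in m-nitrophenol were RPN4 by 1.22 ± 0.33 (adjusted p = 0.0327), UBI4 by 1.53 ± 0.35 (0.0184), RPT5 by 1.92 ± 0.57 (0.0456) and RPN2 by 1.28 ± 0.38 (0.0471). RPN4 in m minus p was at -1.33 ± 0.33 (0.053). In that fit 34 of 37 members had a higher mean in o- than in p-nitrophenol, against 41.9% of all genes, and 28 of 37 a higher mean in o- than in m-nitrophenol, against 43.9%.

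**Figure D4:**
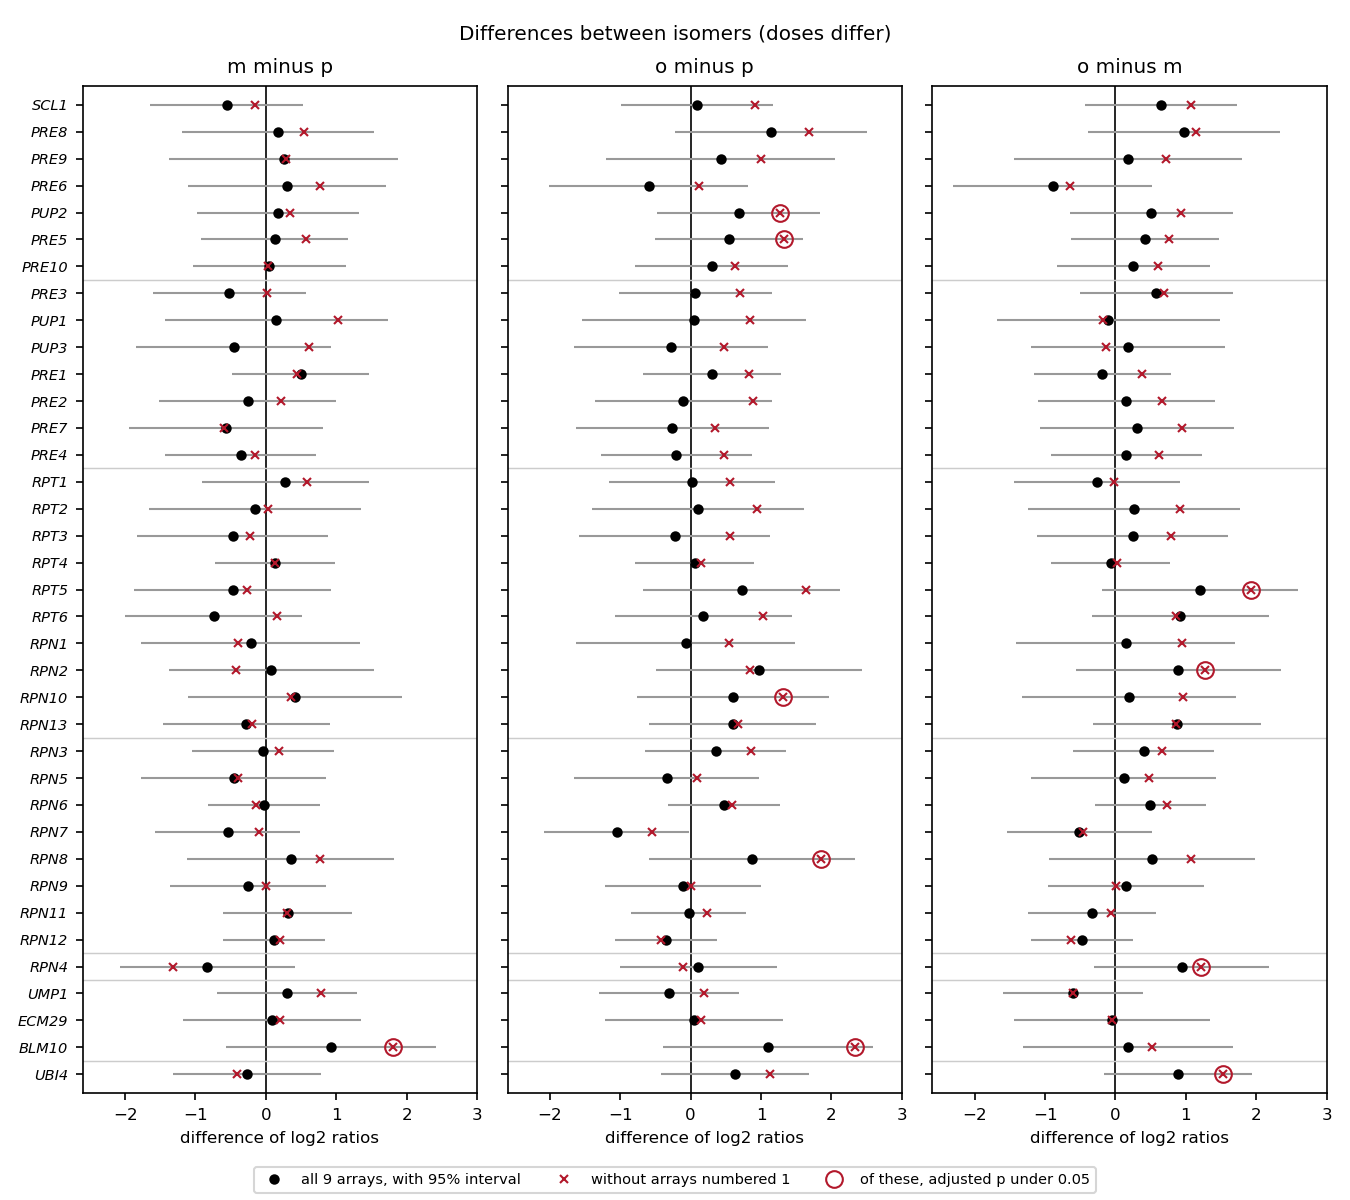
Difference of mean log2 ratios between isomers (x axis; 1 panel for each pair of isomers) for the 37 genes (rows, in the same order as in the plot of values by array), with all 9 arrays (black points, 95% intervals) and without the arrays numbered 1 (crosses, circled where the adjusted p was under 0.05). With all arrays no member was called, and without the arrays numbered 1 there are 1, 5 and 4 circles.

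Further genes of the pathway were looked at by list. Of 14 further assembly chaperones and proteasome-associated factors 12 were tested. In p-nitrophenol 3 (25%) were called higher, where 13.0% of all genes were: NAS6, a chaperone of the base, by 1.44 ± 0.43 (adjusted p = 0.0334), RPN14, likewise a base chaperone, by 0.92 ± 0.27 (0.0375), and the deubiquitinase gene UBP6 by 0.97 ± 0.29 (0.0375). In m-nitrophenol 0 of 12 were called, where 8.26% of all genes were called higher. At an unadjusted p under 0.05, 6 of 12 were higher and 1 lower there, against 858 higher and 849 lower of all 5096 genes. In o-nitrophenol 1 was called higher (8.33%, against 13.8% of all genes) and 1 lower: the lid subunit gene SEM1 rose by 1.72 ± 0.58 (0.0459), and CIC1, which also acts in ribosome assembly, fell by 1.81 ± 0.39 (0.0082). TMA17, a stress-induced base chaperone, had 3.19, 0.38 and 0.54 in p-nitrophenol, 1.51, 1.49 and 1.86 with m-nitrophenol and 2.95, 0.17 and 0.36 in o-nitrophenol and was not called; it was named after its values were seen. Its array 1 values in p- and o-nitrophenol exceeded the other arrays, the reverse of most subunit genes in o-nitrophenol.

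Of 19 genes of ubiquitin activation, conjugation and removal 15 were tested, and 2, 1 and 2 were called higher and 1, 0 and 1 lower in p-, m- and o-nitrophenol. The shares called higher, 13.3%, 6.67% and 13.3%, were near the 13.0%, 8.26% and 13.8% of all genes. UBC5, a ubiquitin-conjugating enzyme for misfolded proteins, rose by 1.18 ± 0.38, 1.61 ± 0.38 and 1.38 ± 0.38 (adjusted p = 0.0466, 0.018 and 0.0214). UBC4, its close paralog, rose by 1.96 ± 0.47 in o-nitrophenol (0.0114), and a probe may read both. UBC7, a conjugating enzyme of the endoplasmic reticulum, rose by 1.01 ± 0.31 in p-nitrophenol (0.0396). UFD2, a chain-elongating ligase, fell by 1.09 ± 0.35 and 1.00 ± 0.35 in p- and o-nitrophenol (0.044 and 0.0499).

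All 9 genes of the Cdc48 segregase and substrate delivery were tested, and 1, 1 and 2 were called higher in p-, m- and o-nitrophenol and 0 lower. With 9 genes, these shares of 11.1%, 11.1% and 22.2% were near those of all genes (13.0%, 8.26% and 13.8%). The deubiquitinase gene OTU1 rose by 1.02 ± 0.30 in p-nitrophenol and 1.00 ± 0.25 in o-nitrophenol (adjusted p = 0.0391 and 0.0163), the Cdc48 cofactor gene NPL4 by 1.54 ± 0.43 in m-nitrophenol (0.0358), and CDC48 itself by 1.22 ± 0.39 in o-nitrophenol (0.0379). Among regulators of RPN4, 3 of 4 were tested, and 1, 0 and 1 were called higher in p-, m- and o-nitrophenol and 0 lower. With 3 genes, these counts cannot be told from the 13.0%, 8.26% and 13.8% of all genes. HSF1, the heat shock factor, rose by 1.08 ± 0.28 in p-nitrophenol (0.0227) and YAP1, the oxidative stress factor, by 1.42 ± 0.41 in o-nitrophenol (0.0265). None was called in m-nitrophenol, where 1 of 3 was higher at an unadjusted p under 0.05, against 858 of all 5096 genes. PDR1 was not called in any treatment.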

How the data were processed

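Per the labels, the authors normalized the ratios by LOWESS using spots with flag 0. The deposited values are log2 ratios, a scale settled from 13 values at exactly the log2 of 0.01. Background correction, software and genome build are not given in the sources used here. Of 6912 probes 5513 had 1 gene symbol, 0 several and 1399 none in the platform annotation, and the Entrez identifier gave the current symbol in RefSeq's list for assembly R64 (5360 genes matched). The high- and low-power value of a spot were averaged where both existed, and then the probes of a gene. limma 3.58.1 in R 4.3.3 fitted group means to all 9 arrays for genes with values on at least 2 arrays per isomer (6 residual and 4.41 prior degrees of freedom), and the fit was tested on simulated data. All p-values were adjusted over the 5096 genes within each contrast.

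Members and lists were chosen with earlier results of these data known. Values on every array are given for RPN4, UMP1, ECM29, BLM10 and UBI4 and for the 4 core and 4 regulatory genes of lowest adjusted p in each treatment, 16 in all, and up to 4 called genes of each further list are named. Alternatives were either laser power by itself, the 18 scans unaveraged with a random array effect (statmod 1.5.0), median centring, quantile normalization, no filter, genes with values on all 9 arrays, 1 probe per gene, the replicate number as a block, each array left out, and the arrays numbered 1 left out. Whether equal numbers pair arrays was checked by correlating deviations from the isomer means over 1757 genes. Equal numbers gave r of 0.12 to 0.26 for m and p, 0.27 to 0.37 for o and p, and 0.06 to 0.22 for o and m. For 9 of 9 arrays the most correlated array of another isomer had the same number. The numbers come from the sample titles, which name no shared day or culture, and the o and m pairs did not all exceed 0.1, so the block was kept as an alternative.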

Additional observations from a re-analysis of the deposited data

How the results depend on the processing

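The median of the 37 proteasome genes stayed above that of all genes under all 19 alternatives, by 0.45 to 0.71 in p-nitrophenol, 0.53 to 0.95 in m-nitrophenol and 0.78 to 1.75 in o-nitrophenol. Centring moved the median of all genes by -0.10, -0.06 and 0.16. Of 34 calls of members, 11 held under every alternative that tested the gene. The numbers called higher in m-nitrophenol were 11 with low-power scans, 12 with quantile normalization, 11 with the replicate block and 25 without arrays numbered 1. In o-nitrophenol 32 were called without arrays numbered 1. That fit also called 1 member lower in p-nitrophenol and 1 between m and p, 5 between o and p and 4 between o and m. Leaving out single arrays gave 3 to 18, 2 to 15 and 7 to 27 called higher in p-, m- and o-nitrophenol, and 0 to 1 in o minus m, where UBI4 was called without o-nitrophenol array 1 (1.44, adjusted p = 0.0472). Other counts stayed within 1.5 times. The cause of these moves was not tested, and shares of all genes are not given for the low-power, quantile and single-array fits. The replicate block called 0 members between isomers. It moved the calls of RPN11 in each treatment and of RPN13 in m-nitrophenol, as given above, and no other of the 48 gene values. With single arrays left out, ECM29 in m-nitrophenol ranged from -1.20 to 0.16 (above 0 without replicate 2), BLM10 in p-nitrophenol from -0.74 to 0.077 (above 0 without replicate 3) and RPN7 in o-nitrophenol from -0.15 (without replicate 3) to 0.56. The values of turned sign were not called. The number of arrays limits the precision, and signal over background is not analysed here.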
